A study of Homo sapiens with 54 samples.

Results

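The clustered protocadherin genes were followed across 27 cultures of human pluripotent stem cells in which fibroblast growth factor (FGF) was supplied as basic FGF (bFGF), as the chimeric protein FGFC, or not at all. A probe was counted as a member when the RefSeq accession given for it mapped to a gene symbol beginning PCDHA, PCDHB or PCDHG followed by an isoform name. This gave 50 of 19720 named genes, read by 58 of the 42405 probes on the array, of which 25715 could be named through RefSeq.

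All cultures came from 4 established lines: the embryonic stem cell (ESC) lines H1 (WA01) and KhES-1, and the induced pluripotent stem cell (iPSC) lines 201B7 and 253G1, both clones reprogrammed from fibroblasts. H1 was grown without feeder cells in E8, a defined medium of Essential 6 with TGF-beta 1 at 2 ng/mL and FGF at 100 ng/mL. In this medium there were 3 pre-cultures with bFGF, 3 cultures each after 4 days with bFGF, FGFC or no FGF, and 1 culture each after 30 days with bFGF or FGFC. H1 was also grown in medium conditioned by mouse embryonic fibroblasts (MEF-CM) with FGF at 5 ng/mL, KhES-1 on mouse embryonic fibroblast (MEF) feeders with 5 ng/mL, 201B7 on MEF feeders with 10 ng/mL, and 253G1 in E8 with 100 ng/mL. Each of these 4 systems had a pre-culture with bFGF and a bFGF and an FGFC culture after 41, 30, 50 and 36 days, respectively. The last culture was H1 differentiated through embryoid bodies without FGF. A line in its medium is called a system below. Every culture was hybridised to 2 one-colour arrays, and each level given is the log2 signal minus the 75th percentile of its array, averaged over both arrays, so that a level of 0 lies at that percentile and 1 unit is a 2-fold difference.

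Clustered protocadherins are cell-surface adhesion proteins of the cadherin superfamily, encoded by tandem alpha, beta and gamma gene clusters on chromosome 5. In the alpha and gamma clusters each gene contributes its own first exon, with its own promoter, which is spliced to exons shared by the whole cluster, whereas each beta gene is a single-exon gene. In neurons single cells switch on a few isoforms each, and the resulting combination gives a cell a surface identity used in self-recognition of neurites. The C-type genes PCDHAC1, PCDHAC2, PCDHGC3, PCDHGC4 and PCDHGC5 stand at the ends of the alpha and gamma clusters and are expressed more constitutively in neurons. The promoters carry a conserved element around the letters CGCT, and the insulator protein CTCF with cohesin takes part in their choice, while DNA methylation by DNMT3B and silencing by SETDB1 and SMCHD1 repress them.

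The 100 bases before the annotated start are shown for the members on which the comparisons below turn, from the RefSeq promoters of GRCh38.p14, all on the plus strand, 5′ to 3′, with every CGCT in capitals. PCDHA9 is added as the only member without it in the whole window of 250 bases before to 50 after the start.
PCDHB2, chr5:141094515-141094614: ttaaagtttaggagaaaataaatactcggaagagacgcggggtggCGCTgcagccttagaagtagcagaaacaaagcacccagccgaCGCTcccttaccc
PCDHB5, chr5:141135106-141135205: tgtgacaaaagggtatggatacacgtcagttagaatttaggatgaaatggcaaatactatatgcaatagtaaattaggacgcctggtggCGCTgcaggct
PCDHB9, chr5:141187061-141187160: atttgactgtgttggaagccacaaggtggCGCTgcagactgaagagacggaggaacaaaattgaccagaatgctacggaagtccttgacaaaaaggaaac
PCDHB10, chr5:141192253-141192352: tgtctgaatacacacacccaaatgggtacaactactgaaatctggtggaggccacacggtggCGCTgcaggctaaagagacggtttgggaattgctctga
PCDHB16, chr5:141182287-141182386: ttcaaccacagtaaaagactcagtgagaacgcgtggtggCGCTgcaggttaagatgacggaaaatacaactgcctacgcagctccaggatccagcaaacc
PCDHGA8, chr5:141392533-141392632: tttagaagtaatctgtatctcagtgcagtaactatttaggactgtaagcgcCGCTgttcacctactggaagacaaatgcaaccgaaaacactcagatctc
PCDHA1, chr5:140786040-140786139: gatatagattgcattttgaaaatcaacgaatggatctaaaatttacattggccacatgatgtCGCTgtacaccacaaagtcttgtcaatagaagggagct
PCDHA9, chr5:140848282-140848381: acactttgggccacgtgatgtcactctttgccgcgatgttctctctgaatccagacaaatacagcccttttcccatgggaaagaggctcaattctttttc

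Of the 50 member genes, 40 had a promoter in this set. CGCT on the given strand was found in 39 of the 40 windows (97.5%), against 54.3% of 35116 promoter windows of the same length, and on either strand in 97.5% against 70.0%. Within the 100 bases before the start it was present in 37 of 40 (92.5%), against 28.1% of all promoters. The TATA-like letters TATAA were less frequent, on either strand in 32.5% of the members and 20.4% of all promoters. The longest stretch common to the 5 beta windows printed above was GGTGGCGCTGCAG, which overlaps CGCT. On either strand, it occurred in 10 of 13 beta promoters and in no alpha, gamma A, gamma B or C-type promoter, and in 15 of all 35116 (0.0427%). The 5 printed windows hold it by construction, and of the other 8 beta promoters 5 hold it. The 3 beta genes without this exact stretch were PCDHB1, PCDHB7 and PCDHB14. These matches describe letters only and are no measurement of binding.

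The 5 measured pluripotency genes (POU5F1, NANOG, SOX2, LIN28A and DNMT3B) were above background on every array of all 5 systems. The 75th percentile signal ranged from 182 to 913 over the 54 arrays, and 56.2% to 79.2% of probes were above background on an array. The share was 56.2% to 61.7% for 253G1, 66.7% to 70.1% for KhES-1 and 75.2% to 79.2% for H1 MEF-CM. Counts of arrays above background therefore depend on the system as well as the level. PCDHA13, at a mean of -5.04 in KhES-1 and -4.98 in 253G1, was above background on 6 of 6 and 0 of 6 arrays.

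Feature Extraction flags a spot as well above background when its signal clears the local background, and 17 of 58 member probes (29.3%) carried this flag on all 54 arrays against 48.4% of all probes, while 4 carried it on none (6.9%, against 6.58%). Those on none were PCDHA2, PCDHB1, PCDHB7 and the pseudogene PCDHB19P, and PCDHA8 was flagged on 1 array. By subcluster, 7 of 16 beta, 4 of 14 alpha, 4 of 10 gamma A, 2 of 8 gamma B, 0 of 6 C-type and 0 of 4 pseudogene probes were above background on every array.

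**Figure D1:**
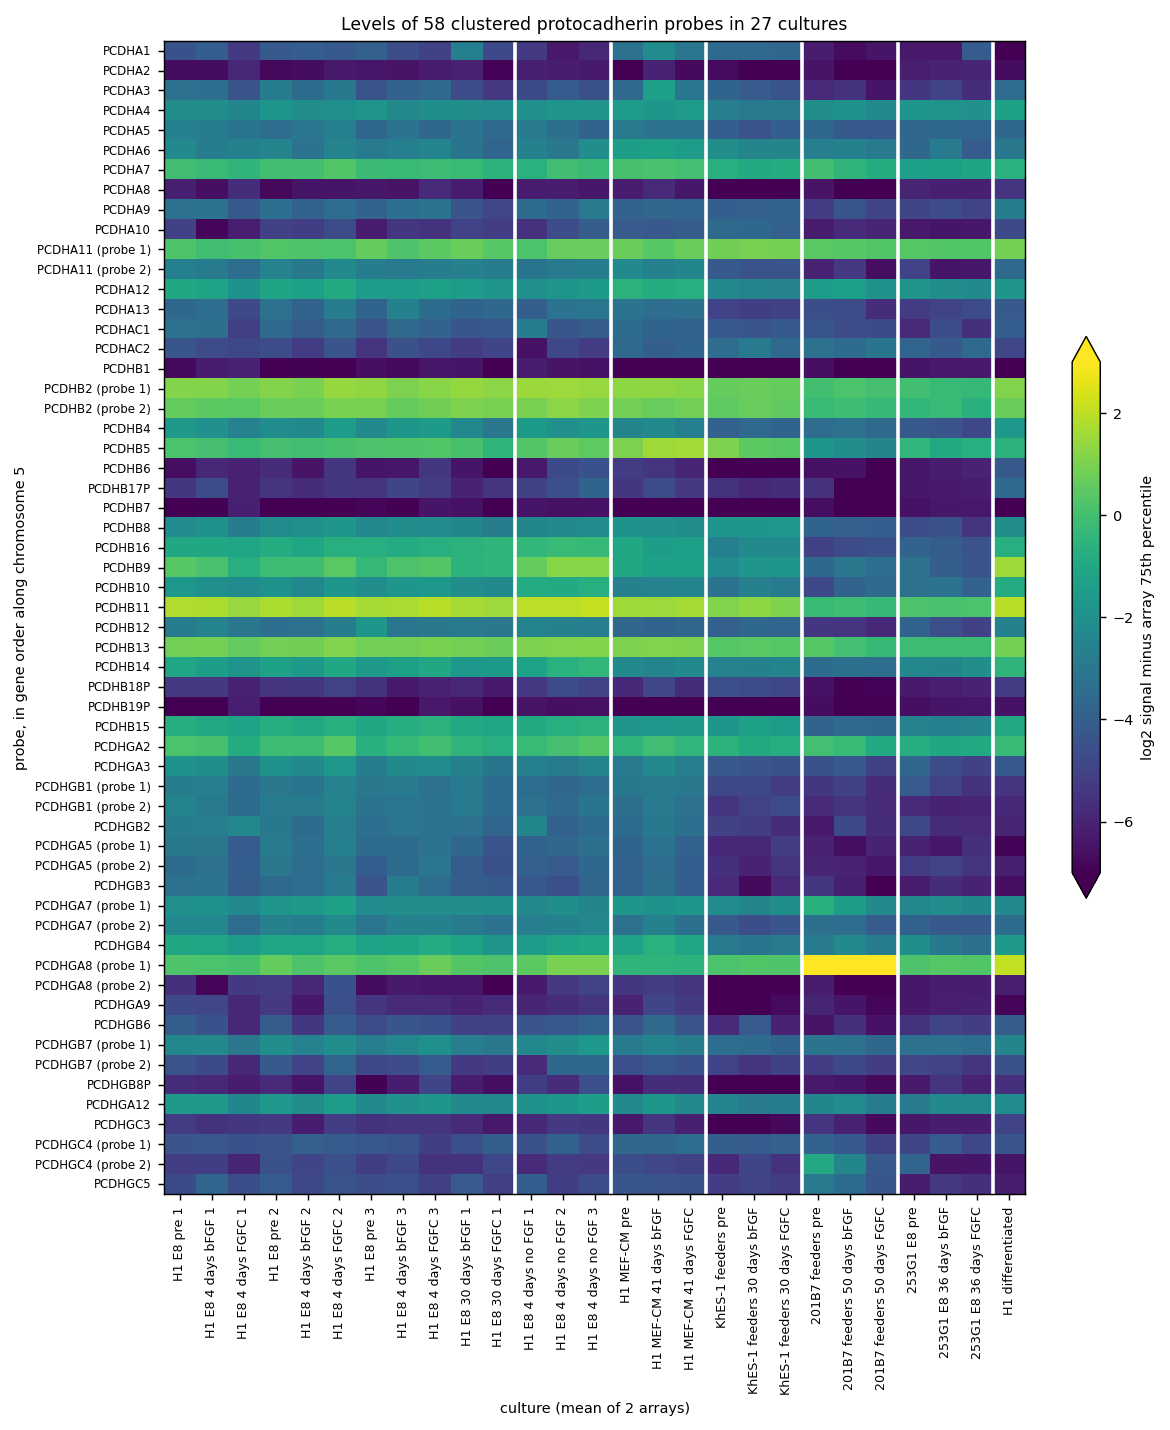
Levels (log2 signal minus the 75th percentile of the array, colour scale from dark, low, to yellow, high) of the 58 member probes in gene order along chromosome 5 (rows) in 27 cultures (columns, each the mean of 2 arrays). White lines part H1 in E8 with FGF, H1 without FGF, the other systems and the differentiated culture. Most rows keep their colour across columns, several beta rows darken in the 201B7 and 253G1 columns, and PCDHGA8 (probe 1) is above the colour scale in the 3 cultures of 201B7.

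Levels depend on the probe as well as the gene, so only differences of 1 probe between cultures are read here. For 8 genes there were 2 probes, numbered from the brighter one. Both probes of PCDHB2 had close mean levels, 0.89 and 0.55. The PCDHGA8 probes, in contrast, had mean levels of 0.84 and -6.16, the first above background on 54 arrays and the second on 8, and gave the same call in only 5 of 9 comparisons, as did the probes of PCDHGA7. The PCDHA11 probes had mean levels of 0.46 and -3.66 and gave the same call in 7 of 9. The probe sequences were not used here, so it is not known which exon each probe reads, nor whether near-identical family members add to its signal.

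Members differed more between systems than probes at large. For each probe the SD of the 5 system means was set against the SD between the cultures within a system. The median SD of system means was 0.74 for the members and 0.5 for all probes, and the median within-system SD was 0.31 and 0.28. The ratio was highest for the beta probes, at 4.22 against 1.75 for all probes. With the count limited to probes above background on every array of at least 1 system, it was 2.54 for 47 members and 1.72 for 30901 probes. The widest probes were PCDHGA8 (probe 1) with an SD of 2.16, PCDHB16 with 1.77, PCDHA11 (probe 2) with 1.71, PCDHB9 with 1.51, PCDHA1 with 1.48, PCDHGB1 (probe 2) with 1.41, PCDHB8 with 1.37, PCDHB5 with 1.33, PCDHGA5 (probe 1) with 1.3 and PCDHGB3 with 1.28.

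The systems were compared with limma over their 3 cultures each (pre-culture, long-term bFGF and long-term FGFC), two-sided, with p-values adjusted by the Benjamini-Hochberg method over all 42405 probes and a threshold of 0.05. The cultures of a system come from 1 line and 1 series of passages, so these p-values measure the spread between cultures and not between lines. Each system was also hybridised on slides of its own, so system and slide cannot be told apart. In RNA from a whole culture, fewer cells that express a gene and less RNA per cell cannot be told apart either. The 5 comparisons share cultures with one another, and the pre-culture used for H1 in E8 was that of experiment 1.

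The first comparison set 253G1 against H1, both in E8, and members were mostly lower in the iPSC line. Of 58 member probes, 26 were lower (44.8%), against 8.67% of all probes, and 1 was higher, against 4.59% of all probes. The median difference was -0.77 on the log2 scale for the members and 0.01 for all probes. By subcluster, 12 of 16 beta, 5 of 8 gamma B, 4 of 10 gamma A, 4 of 14 alpha and 1 of 6 C-type probes were lower. Without the bFGF cultures 11 were lower, and with normexp background correction, which adds an offset and shrinks differences of dim probes, 16.

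PCDHB9 and PCDHB16, which encode beta protocadherins of adjacent genes, had the largest falls. PCDHB9 was at 0.40, -0.54 and -0.47 in the H1 pre-culture, bFGF and FGFC cultures and at -3.22, -3.96 and -4.40 in those of 253G1. It fell by 3.65 (SE 0.31, adjusted p = 1.7e-05), and 253G1 was above background on 3 of 6 arrays. PCDHB16 went from -0.99, -0.58 and -0.44 to -3.83, -4.05 and -4.46, a fall of 3.44 (SE 0.22, adjusted p = 1.4e-06), with 2 of 6 arrays above background in 253G1. The groups lay far apart for both genes.

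PCDHB2 fell on both of its probes. Its first probe was at 1.16, 1.43 and 1.27 in H1 and at -0.01, -0.20 and -0.35 in 253G1, all 12 arrays above background. It fell by 1.47 (SE 0.14, adjusted p = 5.1e-05), and the second probe by 1.32 (SE 0.16, adjusted p = 0.0003). The groups did not overlap on either probe. PCDHB11 fell by 1.5 (SE 0.14, adjusted p = 4.2e-05). PCDHB5 had levels of 0.18, 0.08 and -0.46 in H1 and -0.41, -0.92 and -0.73 in 253G1, a difference of -0.62 (SE 0.26) that missed the threshold (adjusted p = 0.13).

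Outside the beta cluster, PCDHA11 (probe 2), above background on 6 of 6 H1 and 1 of 6 253G1 arrays, fell by 3.22 (SE 0.36, adjusted p = 0.00014), whereas its brighter probe 1 differed by -0.15 (SE 0.16, adjusted p = 0.53). PCDHGB1 (probe 2) was not well above background on any 253G1 array and was at least 7.81-fold lower (adjusted p = 2.1e-05). Such a bound takes, per array, the higher of the probe's own signal and the lowest signal that cleared background, and here it equals the fold of the means because the probe's own signal was the higher. PCDHB8 was at least 5.45-fold lower (adjusted p = 4.7e-05), again the fold of the means. Among the C-type genes PCDHAC1 fell by 1.40 (SE 0.31, adjusted p = 0.011) and PCDHAC2 rose by 0.96 (SE 0.26, adjusted p = 0.028), the only rise among the members. Under normexp, and with slide as a random block, no member was higher.

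The second comparison set 201B7 against KhES-1, both on MEF feeders but with a higher FGF concentration for 201B7. Here 19 members were lower, against 10.6% of all probes, and 11 were higher, against 26.5% of all probes. The median difference was -0.25 for the members and 0.34 for all probes, a shift of the whole array that quantile normalization moved to -0.05, with 25 members lower and 4 higher. With normexp the median of the members turned to 0.32, beside 0.41 for all probes, and the counts were 8 and 5, and without the bFGF cultures 8 and 1. Of 16 beta probes 11 were lower and 2 higher, and both of the latter, PCDHB1 and PCDHB7, were above background on no array. Of the alpha probes 6 were lower and 2 higher, while no gamma B probe passed the test in either direction.

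PCDHB5 had the largest fall of the bright beta probes here. It was at 1.06, 0.46 and 0.41 in the KhES-1 pre-culture, bFGF and FGFC cultures and at -1.70, -2.11 and -2.44 in those of 201B7, all arrays above background. The fall was 2.73 (SE 0.26, adjusted p = 3.1e-05). The 201B7 values were the lowest of PCDHB5 in any culture. PCDHB15 fell by 2.15 (SE 0.15, adjusted p = 2.3e-06), PCDHB16 by 2.37 (SE 0.22, adjusted p = 2.4e-05) and PCDHB8 by 2.20 (SE 0.23, adjusted p = 5.8e-05).

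PCDHB2 fell by 0.62 on probe 1 (SE 0.14, adjusted p = 0.0072) and by 0.83 on probe 2 (SE 0.16, adjusted p = 0.0032), and neither was called without the bFGF cultures, at -0.65 and -0.84. Of the alpha genes, PCDHA1 was at least 5.03-fold lower (adjusted p = 0.0046) and PCDHA10 at least 4.03-fold (adjusted p = 2.3e-06), both above background on all 6 KhES-1 arrays and on no 201B7 array. With normexp neither passed the test, at differences of -0.28 and -0.21. PCDHA4 and PCDHA12 rose by 0.79 (SE 0.14, adjusted p = 0.0021) and 0.89 (SE 0.21, adjusted p = 0.0078).

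The overlap of single cultures was then examined between the 6 iPSC cultures and the 17 ESC cultures with bFGF or FGFC, a division chosen after the values were seen and given with no test. In 9 member probes every iPSC culture was below every ESC culture, which held for 0.297% of all probes, and in no member was every iPSC culture above, which held for 0.172%. Of the 9, 8 were beta probes. There were only 2 lines of each origin, so the origin and the line cannot be told apart.

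PCDHB11 spanned 1.05 to 1.96 in ESC cultures and -0.30 to 0.21 in iPSC cultures, and was above background on every array of both. PCDHB2 (probe 1) spanned 0.65 to 1.43 and -0.35 to 0.16, PCDHB2 (probe 2) 0.45 to 1.08 and -0.63 to -0.11, and PCDHB15 -1.80 to -0.58 and -3.81 to -2.53. These 4 probes were above background on all 12 iPSC arrays. The other 5 were above background on all 34 ESC arrays but only on some iPSC arrays. PCDHB8 (-2.77 to -1.65 in ESC, -5.50 to -3.79 in iPSC) and PCDHB16 (-2.68 to -0.44, and -5.03 to -3.83) were so on 6 of 12. PCDHB9 (-2.13 to 0.44, and -4.40 to -3.02) and PCDHB10 were so on 9, and PCDHA11 (probe 2; -4.43 to -2.25, and -6.63 to -5.00) on 1. For PCDHB10 the margin was small, -3.19 against -3.20.

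Taken alone, each iPSC line holds these 9 by construction. In 253G1, 15 members (10 of them beta) lay below all ESC cultures and 0 above, against 2.95% and 2.25% of all probes. In 201B7, 16 members (11 beta) lay below and 2 above, against 2.3% and 2.54%. The 9 became 7 under normexp and 11 under quantile normalization. The median difference of means was -1.51 for the beta probes, -1.51 for the gamma B probes, -1.03 for all members and 0.02 for all probes.

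**Figure D2:**
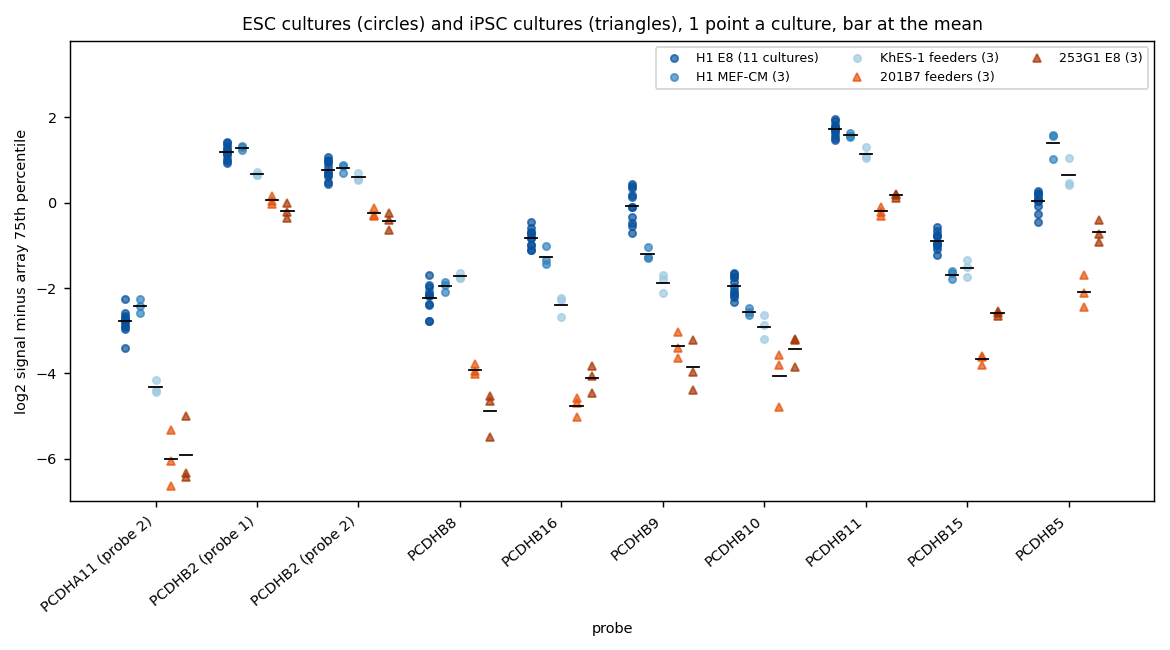
Levels (log2 signal minus the 75th percentile of the array) of the 9 member probes in which all 6 iPSC cultures (triangles) were below all 17 ESC cultures (circles), and of PCDHB5. Each point is 1 culture and each bar the mean of a system. In PCDHB11 the iPSC cultures span -0.30 to 0.21 and the ESC cultures 1.05 to 1.96.

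The other 2 comparisons differ in both line and medium. KhES-1 on MEF feeders against H1 in MEF-CM had 29 of 58 members lower (50.0%), against 25.2% of all probes, and 1 higher, against 13.6% of all probes. By subcluster, 7 of 8 gamma B, 6 of 10 gamma A, 7 of 14 alpha and 7 of 16 beta probes were lower. The median difference was -1.96 for gamma B and -0.14 for all probes. PCDHGB4 went from -1.25, -0.60 and -1.09 in H1 to -2.87, -3.13 and -2.94 in KhES-1, a fall of 1.99 (SE 0.31, adjusted p = 0.00048) with no overlap and all arrays above background. PCDHGB3 fell by 2.34 (SE 0.42, adjusted p = 0.0012), PCDHGB2 by 2.04 (SE 0.37, adjusted p = 0.0013), PCDHGA5 (probe 1) by 2.03 (SE 0.35, adjusted p = 0.00085) and PCDHGB1 (probe 1) by 2.00 (SE 0.3, adjusted p = 0.00041). Without the bFGF cultures 13 members were lower. With normexp 13 were lower too and the dim PCDHGB2, PCDHGB3 and PCDHGA5 (probe 1) lost their calls, and quantile normalization gave 23 lower and 4 higher. The pseudogene PCDHB18P, the single rise, overlapped between groups.

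The iPSC systems, 201B7 on feeders and 253G1 in E8, also differed in FGF concentration. In 201B7 against 253G1, 11 members were lower, against 20.4% of all probes, and 7 were higher, against 14.0%. The split was 1 and 13 under normexp and 8 and 9 under quantile normalization, so the members had no stable direction. Without the bFGF cultures it was 0 and 2. PCDHB5 fell by 1.40 (SE 0.26, adjusted p = 0.0027), PCDHB14 by 1.10 (SE 0.17, adjusted p = 0.00098) and PCDHB15 by 1.08 (SE 0.15, adjusted p = 0.00045), the last 2 not past the test with normexp. PCDHB4 rose by 1.07 (SE 0.28, adjusted p = 0.015), and PCDHB8 was at least 1.97-fold higher (adjusted p = 0.0092), which is the fold of the means. PCDHB2 differed by 0.24 (SE 0.14, adjusted p = 0.19) on probe 1.

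Within H1, MEF-CM was compared with E8. The FGF concentration was lower in MEF-CM than in E8, so medium and FGF dose cannot be told apart. Of the members 9 were higher, against 7.8% of all probes, and 7 were lower, against 20.8% of all probes. Of 14 alpha probes 5 were higher and none lower, with a median difference of 0.39, and of 16 beta probes 2 were higher and 6 lower, with a median of -0.35, beside -0.15 for all probes. Normexp left 3 and 3, quantile normalization 9 and 4, and leaving out the bFGF cultures 1 and 0. Among the 7 lower probes PCDHB1, PCDHB7 and PCDHB19P were above background on no array.

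PCDHB5 was at 1.02, 1.57 and 1.60 in MEF-CM and at 0.18, 0.08 and -0.46 in E8, a rise of 1.46 (SE 0.26, adjusted p = 0.0013) with no overlap. PCDHB2 (probe 1) differed by 0.01 (SE 0.14, adjusted p = 0.98), with a sign that depends on the cultures left out. PCDHB9 fell by 0.99 (SE 0.31, adjusted p = 0.026), PCDHB14 by 0.89 (SE 0.17, adjusted p = 0.0021), PCDHB12 by 0.81 (SE 0.25, adjusted p = 0.029) and PCDHB15 by 0.74 (SE 0.15, adjusted p = 0.0027). PCDHA6 rose by 1.62 (SE 0.34, adjusted p = 0.0032) and PCDHA10 by 0.96 (SE 0.16, adjusted p = 0.00087). PCDHAC2 rose by 1.02 (SE 0.26, adjusted p = 0.0097). With normexp the dim PCDHA10 and PCDHAC2 moved to 0.11 and 0.10 and lost their calls. PCDHA3, called at 1.75 (SE 0.56, adjusted p = 0.031), overlapped between groups and was lost under several alternatives.

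PCDHGA8 (probe 1) stood apart in 201B7. It was at 6.14, 4.91 and 3.45 in the 201B7 pre-culture, bFGF and FGFC cultures, whereas the other pluripotent systems lay between -0.55 and 0.70 with FGF. It rose by 4.60 against KhES-1 (SE 0.44, adjusted p = 3.1e-05) and by 4.55 against 253G1 (SE 0.44, adjusted p = 4.3e-05), and by 3.91 against KhES-1 without the pre-cultures. Probe 2 of the same gene was above background on no array of 201B7 or KhES-1. It was at -6.19, -7.06 and -7.01 in 201B7 and did not show the rise of probe 1. In the FGFC culture of H1 after 4 days in experiment 2, probe 2 was at -4.48 and probe 1 at 0.455.

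The C-type probes PCDHGC4 (probe 2) and PCDHGC5 had the same order of the 3 cultures. PCDHGC4 (probe 2) was at -0.95, -2.39 and -4.16, a rise over KhES-1 of 2.94 (SE 0.75, adjusted p = 0.012), while its probe 1 differed by -0.35 (SE 0.28, adjusted p = 0.33). PCDHGC5 was at -2.88, -3.46 and -4.31, a rise of 1.56 (SE 0.33, adjusted p = 0.0051) that missed the threshold without the pre-cultures, at 1.19. Without the bFGF cultures neither was called, and PCDHGC4 (probe 2) was not called under quantile normalization. The third C-type probe counted as higher, PCDHGC3, was above background on no array of either system.

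Mesenchymal cells, which include the feeders, are marked by genes such as VIM and COL1A1. The feeders were mouse cells and the array was made for human genes, and how far mouse RNA binds its probes was not tested. Among the 3 cultures of 201B7 the pre-culture was highest in 4 of the 5 listed markers that were above background. THY1 was at 6.23, 5.27 and 4.70 in the same order, VIM at 6.57, 5.24 and 4.59, and COL1A1 at 4.89, 4.11 and 3.82, whereas PDGFRB was at -2.58, -2.52 and -2.36. THY1 was also at a mean of 5.42 in the 11 feeder-free H1 E8 cultures with FGF, and at 2.82 in differentiated H1. VIM was at 7.08, 6.74 and 7.37 in the H1 MEF-CM pre-culture, bFGF and FGFC cultures, also grown without feeder cells. Of the 7 listed markers 5 were above background on every array in all 5 systems, and COL3A1 and LUM on none. The summed level of the list, log2 of the added signals, was 6.14 to 7.75 in 201B7, 6.13 to 6.53 in KhES-1, 7.41 to 7.87 in H1 MEF-CM, 6.41 to 6.55 in 253G1 and 5.89 to 6.07 in H1 E8. Of 6 probes of 4 genes looked up after their values were seen, 5 had the same order, among them DCN (probe 1) at 7.08, 6.28 and 4.85, HOXB6 at 3.40, 2.07 and 0.50 and HOXC8 at 1.53, 0.36 and -0.78. The sixth, TM4SF1 (probe 1), was at -3.31, -3.30 and -2.88. For KhES-1 DCN (probe 1) was at -2.09, -4.41 and -4.38. The 2 arrays of the 201B7 pre-culture were the dimmest of all, with a 75th percentile signal of 182 and 234 against 504 to 632 on the other 4 of that line. The part of feeder RNA, or of other cells, in these values was not tested.

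**Figure D3:**
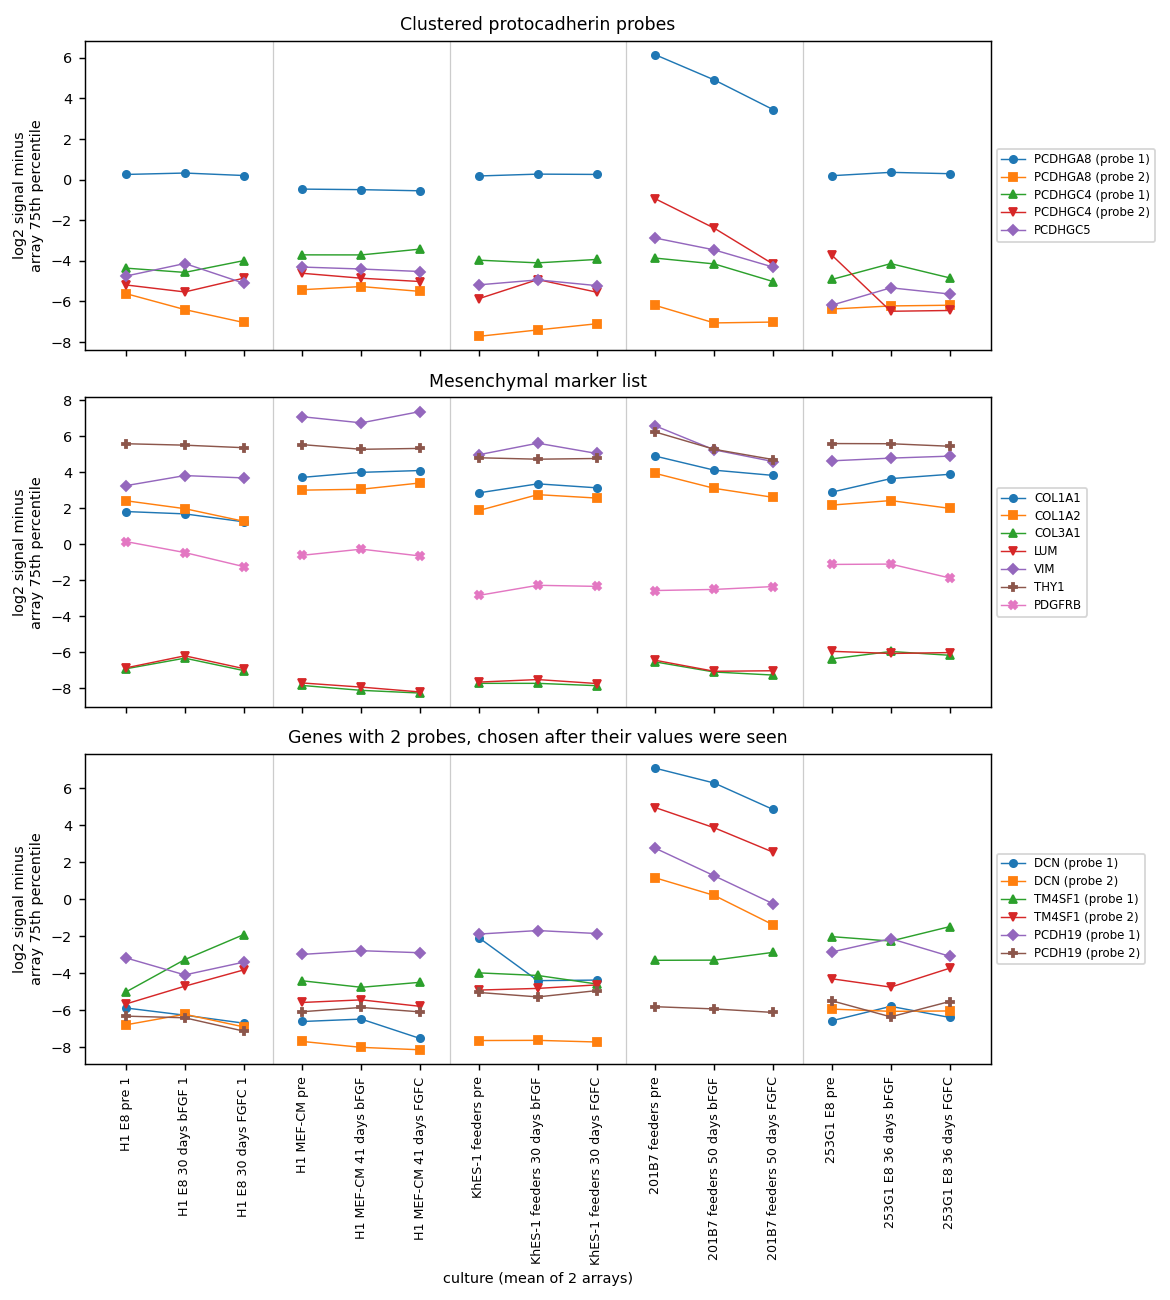
Levels (log2 signal minus the 75th percentile of the array) in the 15 cultures of the 5 systems, each system in the order pre-culture, long-term bFGF, long-term FGFC. The top panel has the PCDHGA8, PCDHGC4 and PCDHGC5 probes and the middle panel the mesenchymal marker list. The bottom panel has DCN, TM4SF1 and PCDH19, with 2 probes each, chosen after their values were seen. PCDH19 is on the list of protocadherins outside the clusters. Lines join the 3 cultures of a system and are no time course, since bFGF and FGFC are parallel arms. PCDHGA8 (probe 1) is at 6.14, 4.91 and 3.45 in 201B7.

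The question of the study, whether FGFC can stand in for bFGF, was addressed for the members in H1 E8 after 4 days, with 3 cultures per arm. No member differed between FGFC and bFGF by limma, nor did any other probe, so that 0.0% of all probes were higher and 0.0% lower. At an unadjusted p under 0.05 there were 3 members (5.17%) and 1262 of all probes (2.98%). PCDHB2 (probe 1) was at 1.13, 0.98 and 1.03 with bFGF and 0.92, 1.40 and 1.24 with FGFC, a difference of 0.14 (SE 0.16, adjusted p = 1.0). PCDHB5 was at 0.03, -0.08 and 0.24 with bFGF and -0.27, 0.10 and 0.28 with FGFC, a difference of -0.03 (SE 0.18, adjusted p = 1.0). The arms overlapped in both.

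The arm without FGF was compared with both. Against bFGF, 2 were higher, against 5.54% of all probes, and 1 was lower, against 7.19%. Against FGFC, 1 was higher, against 4.72%, and 0 lower, against 6.07%. The counts against bFGF were 7 and 4 when only the 2 arms were fitted, and 4 and 2 with dim probes left out. PCDHB10, a beta gene, was at -1.97, -2.32 and -1.75 with bFGF, at -2.16, -1.75 and -1.65 with FGFC and at -0.84, -0.89 and -0.72 without FGF. It rose by 1.19 against bFGF (SE 0.2, adjusted p = 0.0028) and by 1.03 against FGFC (SE 0.2, adjusted p = 0.0075), with no overlap. The arms without FGF are shared by both comparisons. PCDHB16 rose against bFGF by 0.66 (SE 0.17, adjusted p = 0.023). PCDHA1 was at -4.03, -4.00 and -4.63 with bFGF and -5.29, -6.32 and -5.84 without FGF, where no array was above background. It was at least 2.06-fold lower (adjusted p = 0.0095), and with normexp the difference was -0.22 and not called. Leaving out experiment 2 or 3 left no member called in either comparison, and without experiment 1 PCDHB10 lost its call against FGFC.

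Of the 16 beta differences from bFGF 1 was below 0, against 20738 of all 42405, and the median was 0.46 beside 0.01. From FGFC 1 was below 0, against 21917, and the median was 0.31 beside -0.02. These counts include the called PCDHB10 and PCDHB16, and PCDHB1 and PCDHB7, which were above background on no array. They also include PCDHB6, above background on no array of the arms compared. Its mean level was -5.18 without FGF, -6.25 with bFGF and -5.63 with FGFC. PCDHB9 differed by 0.95 from bFGF (SE 0.31, adjusted p = 0.074) and PCDHB5 by 0.47 (SE 0.18, adjusted p = 0.14). PCDHB2 (probe 1) differed by 0.45 (SE 0.16, adjusted p = 0.095), which passed the test when only the 2 arms were fitted. Gamma B and C-type probes had medians of -0.15 and -0.19. Pluripotency markers moved in the same arm, with 3 of 6 probes lower and 1 higher than with bFGF, and 6 of 11 neural marker probes were higher. Their part in these values was not tested.

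In long-term culture FGFC was compared with bFGF over the 5 systems as pairs. By limma, 0 members differed and 0.0% of all probes were higher and 0.0% lower. The lowest adjusted p of a member was 0.7. Of the 58 member differences 53 were below 0, against 24591 of all 42405, with a median of -0.18 for the members and -0.04 for all probes. At an unadjusted p under 0.05 there were 11 members (19.0%) and 2537 of all probes (5.98%). Within the systems the median member difference was -0.28 in H1 E8, -0.14 in H1 MEF-CM, -0.34 in 201B7, -0.07 in 253G1 and -0.04 in KhES-1. PCDHB2 (probe 1) differed by -0.12 (SE 0.08, adjusted p = 0.7) and PCDHB5 by -0.14 (SE 0.13, adjusted p = 0.74). PCDHA3 had the lowest mean of the members, -0.86 (SE 0.21, adjusted p = 0.7).

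**Figure D4:**
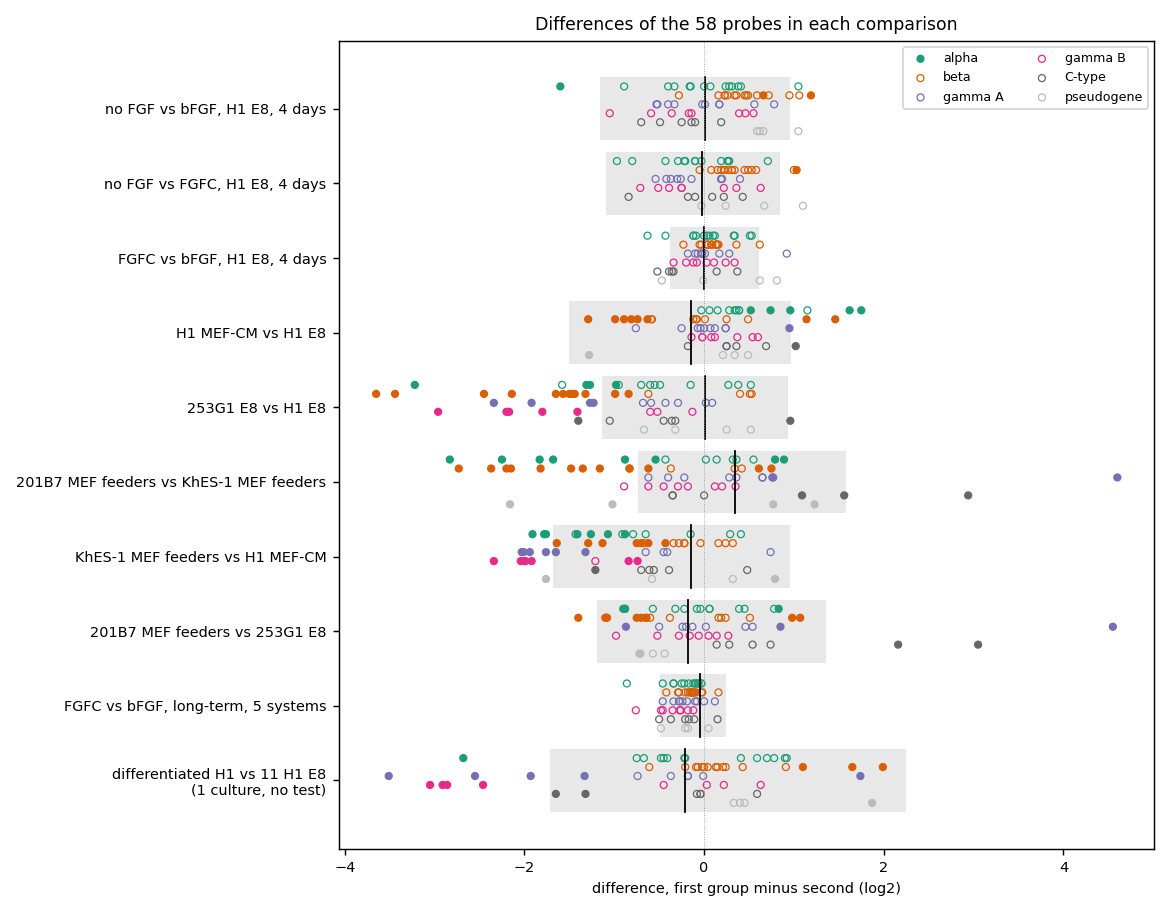
Differences (log2, first group minus second) of the 58 member probes in 10 comparisons, coloured by subcluster. Filled points passed the limma test at an adjusted p of 0.05. In the last row they lay outside the range of 11 cultures and at least 2-fold from their mean. Grey bands run from the 5th to the 95th percentile of all 42405 probes and black lines are their medians. In 253G1 against H1, 26 members are filled to the left and 1 to the right, and in both rows of FGFC against bFGF none is filled.

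A single culture of differentiated H1 allowed no test and was set against the 11 H1 E8 cultures with bFGF or FGFC. Members were counted when outside their range and at least 2-fold from their mean. There were 5 higher, against 12.7% of all probes, and 11 lower, against 14.9%. With normexp they were 2 and 4. Of the gamma probes, 4 of 8 gamma B and 4 of 10 gamma A met the criterion as lower and 1 gamma A as higher, and the other 9 met it in neither direction. Of the 16 beta probes 3 were higher and none lower.

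PCDHB9 was at 1.59 in the differentiated culture, above a range of -0.70 to 0.44 with a mean of -0.07 ± 0.4 (SD, n = 11), which is 3.14-fold. PCDHB10 was at -0.85, above -2.32 to -1.65. PCDHGA8 (probe 1) was at 2.08, above 0.10 to 0.70, and the pseudogene PCDHB17P at -3.57, above -6.00 to -4.62. PCDHB6, the fifth, was above background on 1 of its 2 arrays. Probe 2 of PCDHGA8, above background on neither array of this culture, was at -6.18, within its range of -7.03 to -4.48.

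Lower were PCDHGA3, at -4.26 against -3.10 to -1.65, and probes that were well above background on neither array of the differentiated culture. Among the latter PCDHGB1 (probe 1) was at -5.48 against -3.51 to -2.55, PCDHGB2 at -5.96 against -3.73 to -2.33, PCDHGB3 at -6.60 against -4.37 to -2.77 and PCDHGA5 (probe 1) at -6.90 against -4.43 to -2.70. The rest were PCDHA1, PCDHGB1 (probe 2), PCDHGA5 (probe 2), PCDHGA9, PCDHGC4 (probe 2) and PCDHGC5. PCDHB2 (probe 1), at 1.11, lay within its range of 0.92 to 1.43, and PCDHB5, at -0.57, was just under its range of -0.46 to 0.28.

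This culture was a mixture. Of 6 pluripotency probes 5 were lower, with a median difference of -4.36, and 9 of 11 neural, 6 of 7 mesenchymal and 4 of 4 endoderm marker probes were higher. The remaining mesenchymal probe, THY1, was lower, at 2.82 against 4.88 to 5.78.

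**Figure D5:**
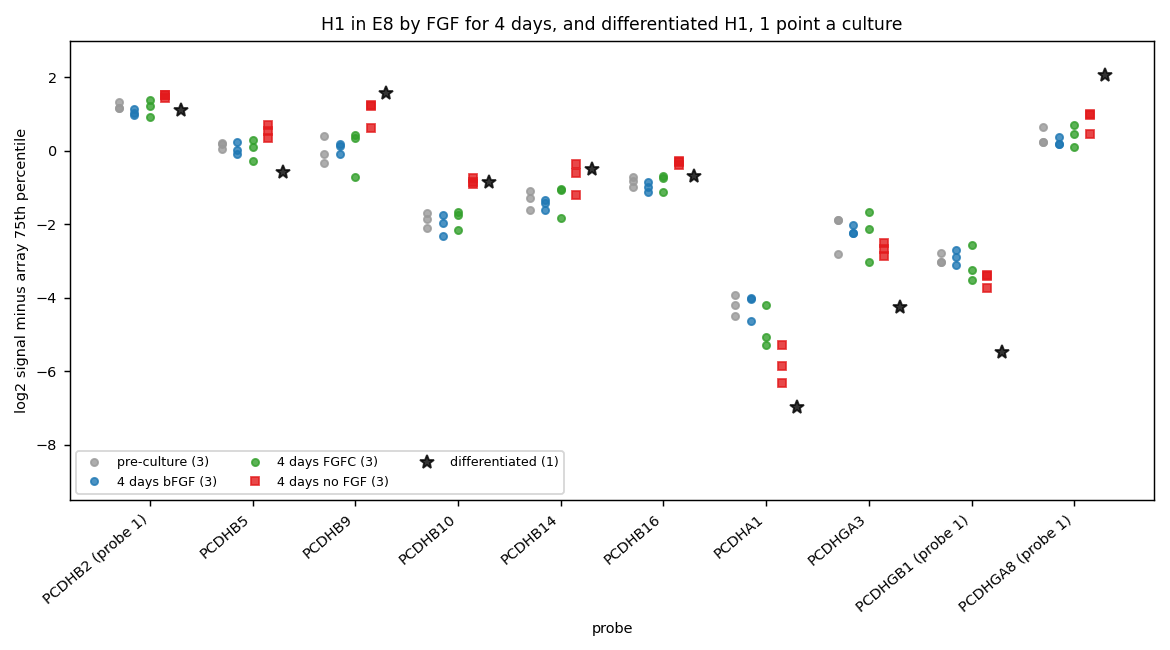
Levels (log2 signal minus the 75th percentile of the array) of 10 member probes in H1 cultures in E8 (grey, pre-culture; blue, bFGF; green, FGFC; red squares, no FGF, each 3 cultures) and in the differentiated H1 culture (star). PCDHB10 without FGF spans -0.89 to -0.72, above all bFGF and FGFC points, and PCDHGB1 (probe 1) is lowest in the differentiated culture at -5.48.

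Genes that act on or lie beside the clusters were counted as whole lists, to be read beside the shares of all probes. Higher and lower were 4.59% and 8.67% in 253G1 against H1 E8, and 13.6% and 25.2% in KhES-1 against H1 MEF-CM. They were 26.5% and 10.6% in 201B7 against KhES-1, and 7.8% and 20.8% in H1 MEF-CM against E8. For no FGF against bFGF they were 5.54% and 7.19%. Of 27 probes of 15 promoter-choice and silencing genes, among them CTCF, cohesin subunits, DNMT3B and SMCHD1, 3 were higher and 0 lower in 253G1 than in H1 E8, and all 3 were probes of the cohesin subunit gene STAG2, with rises of 0.89 to 1.21. In KhES-1 against H1 MEF-CM 9 were higher and 0 lower, including STAG2 (probe 2) with a rise of 1.30 (SE 0.17, adjusted p = 0.00016) and SMCHD1 (probe 2) with 0.89 (SE 0.2, adjusted p = 0.0037), while STAG2 (probe 3) and SMCHD1 (probe 1) differed by -0.38 and 0.19 and did not pass the test. In 201B7 against KhES-1 3 were higher and 3 lower, and in H1 MEF-CM against E8 4 and 4. Without FGF, 1 was lower than with bFGF, DNMT3A (probe 3), by 1.67 (SE 0.29, adjusted p = 0.0033), while its probes 1 and 2 differed by 0.43 (SE 0.21, adjusted p = 0.22) and 0.13 (SE 0.25, adjusted p = 0.8).

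Of 10 probes of 9 genes that flank the clusters on chromosome 5, 1 was lower and 0 higher in 253G1 than in H1 E8. Of all probes 8.67% were lower and 4.59% higher. The lower probe on the list was FCHSD1, which fell by 1.36 (SE 0.17, adjusted p = 0.00032). In 201B7 against KhES-1 3 of the 10 probes were lower, against 10.6% of all probes, and 1 higher, against 26.5%. The 14 probes of 9 protocadherin genes outside the clusters included 3 higher in 253G1, against 4.59% of all probes, and 0 lower, against 8.67%. The clustered members were mostly lower there. Without FGF 3 of the 14 probes were higher than with bFGF, against 5.54% of all probes, and 1 lower, against 7.19%. PCDH7 rose by 4.36 (SE 0.43, adjusted p = 7.1e-05). Of the kinases bound by clustered protocadherins, PTK2, PTK2B and FYN, none passed the test in 253G1 against H1 E8, and PTK2B and FYN fell by 0.52 (SE 0.17, adjusted p = 0.032) and 0.46 (SE 0.13, adjusted p = 0.02) in 201B7 against KhES-1.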

How the data were processed

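RNA from 27 cultures was hybridised to 54 one-colour Agilent SurePrint G3 arrays, 2 per culture. The authors scanned them with Feature Extraction 10.7.3.1, and the deposited values are linear processed intensity per spot, background-subtracted and not scaled between arrays, beside flags (other units) for outlier and well above background spots. Control spots (4259 of 62976) and outlier spots were left out, spots of a probe were averaged, and log2 intensity was centred on the 75th percentile of each array after a floor of 1. Duplicate arrays were averaged to 1 culture. Accessions were matched to RefSeq symbols, which left 16690 probes unnamed.

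Groups were compared with limma 3.58.1 in R 4.3.3 over all 42405 probes (lmFit and eBayes, two-sided, Benjamini-Hochberg, 0.05). Named genes were PCDHB2, PCDHB5, the C-type genes, up to 5 largest rises and falls per comparison among probes above background on all arrays of the brighter group, the 10 widest between systems, and the members outermost in the differentiated culture. The members and lists were chosen with earlier results of these data known. Experiment numbers in the labels were checked as pairs by the correlation of same-numbered deviations, which was 0.191 to 0.321 between no FGF and bFGF and 0.227 to 0.26 between no FGF and FGFC, over 0.1 in every pair, but 0.0769 to 0.179 between FGFC and bFGF. Alternatives were normexp (offset 50), quantile normalization, a floor, a filter on dim probes, blocks and left-out cultures. On simulated data with 200 changed of 42400 probes, 32% of 2-fold and 82% of 4-fold changes were called in 253G1 against H1 E8, 17% and 75% in no FGF against bFGF, and 51% and 84% in the long-term pairs. In the data 3678 probes were called lower in 253G1 against H1 E8 and 3051 in no FGF against bFGF. The Benjamini-Hochberg cutoff depends on how many probes change, so the simulated shares need not hold in these 2 comparisons. The number of cultures limits the precision.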

Additional observations from a re-analysis of the deposited data

Results flagged for a closer look

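In long-term culture, the difference between FGFC and bFGF of 1 system stood apart from the other 4 for 3 of 42 items examined by Dixon's criterion, which chance meets in about 1 of 20. PCDHAC1 differed by -1.01 in 253G1, and by 0.09, -0.06, 0.19 and -0.04 in H1 E8, H1 MEF-CM, KhES-1 and 201B7. PCDHA11 (probe 2) differed by -1.31 in 201B7, and by -0.10, 0.16, 0.03 and 0.10 in H1 E8, H1 MEF-CM, KhES-1 and 253G1. PCDHGA8 (probe 1) differed by -1.46 in 201B7, the system in which it was brightest, and by -0.12, -0.06, -0.02 and -0.07 in the same order. PCDHAC1 was above background on 1 of 6 253G1 arrays and PCDHA11 (probe 2) on 0 of 6 201B7 arrays, so both of these differences lie at or near background. None of the 3 items has a replicate within its system.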

How the results depend on the processing

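Of 191 alternative counts, 127 were within 1.5 times the count reported and 64 were not, and no count can change sign. Of 629 values of named probes 556 kept their direction and side of the threshold, 64 lost and 4 gained a call, and 5 changed sign, none of them called. These were PCDHB5 in FGFC against bFGF after 4 days (0.03 with normexp, -0.13 to 0.11 without 1 experiment), and in H1 MEF-CM against E8 PCDHB2 probe 1 (-0.06 without the pre-cultures to 0.05 without the bFGF cultures) and probe 2 (-0.25 without the pre-cultures to 0.07 without the bFGF cultures, and 0.04 with all 11 H1 E8 cultures). The causes were not tested. Normexp compresses dim signals, and 17 of 58 members were above background on all arrays.

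Members higher and lower under normexp were 4 and 0 in no FGF against bFGF, 3 higher in no FGF against FGFC, 3 and 3 in MEF-CM against E8, 0 and 16 in 253G1 against H1 E8, 5 and 8 in 201B7 against KhES-1, 0 and 13 in KhES-1 against MEF-CM, 13 and 1 in 201B7 against 253G1, and 2 and 4 in the differentiated culture. Under quantile normalization 3 were higher in no FGF against FGFC, 4 lower in MEF-CM against E8, 2 higher in 253G1 against H1 E8, 4 higher in 201B7 against KhES-1 and 4 higher in KhES-1 against MEF-CM. With dim probes left out, 4 were higher and 2 lower in no FGF against bFGF, 3 higher against FGFC, 4 lower in MEF-CM against E8, 0 higher in 253G1 against H1 E8, 7 higher in 201B7 against KhES-1, 2 higher in KhES-1 against MEF-CM and 4 lower in 201B7 against 253G1. With the floor, 4 were higher in no FGF against bFGF and 5 lower in 201B7 against 253G1. Fitting only the 2 arms gave 7 higher and 4 lower in no FGF against bFGF. Between all ESC cultures and 1 iPSC line, 15 were lower with 253G1 only, and 16 lower and 2 higher with 201B7 only.

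Leaving out 1 experiment or 1 kind of culture gave 0 to 5 higher and 0 to 1 lower in no FGF against bFGF, 0 to 1 higher against FGFC, 1 to 12 higher and 0 to 8 lower in MEF-CM against E8, 0 higher and 11 to 23 lower in 253G1 against H1 E8, 1 to 9 and 8 to 15 in 201B7 against KhES-1, 0 and 13 to 32 in KhES-1 against MEF-CM, and 2 to 8 and 0 to 12 in 201B7 against 253G1. The lowest counts between systems came mostly without the bFGF cultures.

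With experiment number as a replicate block the counts were 2 and 1, 1 and 0, and 0 and 0 in the 3 comparisons after 4 days, and the block changed no call of a named probe. With the role of the culture as a replicate block they were 9 and 7 in MEF-CM against E8, 1 and 29 in 253G1 against H1 E8, 11 and 17 in 201B7 against KhES-1, 1 and 32 in KhES-1 against MEF-CM and 7 and 11 in 201B7 against 253G1, and without the block 0 and 0 in the long-term pairs. Slide as a random block, for the systems chosen after seeing the data, gave 4 higher in no FGF against FGFC, 0 higher in 253G1 against H1 E8 and in KhES-1 against MEF-CM, and 5 lower in 201B7 against 253G1.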
